A study of Mus musculus with 12 samples.

Results

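Interferon regulatory factors (IRFs) and signal transducers and activators of transcription (STATs) are the transcription factors through which cells answer interferons and many cytokines. The 9 genes described here were 6 IRF genes (Irf1, Irf2, Irf3, Irf5, Irf7 and Irf9) and 3 STAT genes (Stat2, Stat3 and Stat6), taken by symbol from a table of 55487 genes. All 9 passed the filter on low values and were among the 13280 genes tested. RNA had been sequenced from a primary fibroblast line grown from the mammary fat pad of 1 healthy B6 mouse, so all libraries share 1 animal and no gene was deleted or added.

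Doxorubicin-treated cells received 100 nM of this topoisomerase poison, which breaks DNA, for 24 h and were lysed on day 7. The vehicle for doxorubicin was water, and those cells were also lysed on day 7. Peroxide-treated cells received the oxidant hydrogen peroxide at 750 uM for 2 h on 3 occasions, each followed by 48 h of recovery, and were lysed on day 6. Their own vehicle was again water, with lysis on day 6. Both treatments are described by the series as inducers of senescence, and both vehicle groups were passaged routinely, so passaging and treatment cannot be told apart. Each of the 4 groups held 3 libraries, and whether these came from separate cultures is not stated. All p-values therefore measure only the spread between these libraries, which may be technical.

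In the textbook account, sensors of foreign or misplaced nucleic acid activate IRF3 and IRF7, which switch on interferon genes. Secreted type I interferon then acts through Janus kinases, and STAT2 and IRF9 join a further STAT protein in the complex that binds the interferon-stimulated response element (ISRE). Irf1, Irf7, Irf9 and Stat2 are themselves known as interferon-inducible genes, while STAT3 answers cytokines of the IL-6 family and STAT6 answers IL-4 and IL-13. Fibroblasts carry the receptors for most of these signals and are known to mount an interferon response.

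The starts of the members were searched for the letters these factors are known to bind, because several members are both carriers and targets of the same signals. RefSeq start windows on GRCm38.p6, from 250 bases before to 50 bases after each start, were found for 9 of 9 members (11 windows). The ISRE core was searched as GAAA, any 2 bases and GAAA, and the STAT site (GAS) as TTC, any 3 bases and GAA, or with a wider spacer of any 4 bases, on both strands. The 3 stretches below each carry a match in capitals and are written 5′ to 3′ on the strand of the gene. In Irf2 the capitals mark an ISRE core, in Stat2 an ISRE core read on the other strand as GAAACTGAAA, and in Irf1 a GAS with a spacer of 3 bases.
Irf2, chr8:46739495-46739538, plus strand: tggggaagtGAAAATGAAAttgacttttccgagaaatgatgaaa
Stat2, chr10:128270251-128270310, plus strand: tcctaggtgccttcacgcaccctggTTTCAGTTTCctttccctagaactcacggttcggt
Irf1, chr11:53769899-53769957, plus strand: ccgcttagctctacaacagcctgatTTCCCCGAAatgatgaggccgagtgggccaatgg
Counted from the start, the match in Irf2 ran from -241 to -232, that in Stat2 from -222 to -213 and that in Irf1 from -90 to -82. Irf2 also held the GAS TTCCGAGAA from -224 to -216, and Stat2 the wider form TTCCCTAGAA from -210 to -201. Both are left in lower case in the stretches above. None of these matches overlapped another. A further match to the wider form lay after the start in a window of Irf9. The windows of Irf3, Irf5, Irf7, Stat3 and Stat6 held no match to these letters. Of 32851 windows of this length in the whole table, 3.44% held the ISRE core, 8.30% the narrower GAS and 6.95% the wider GAS. Each of the 3 patterns was found in 2 of the 11 windows of the members. A match describes the letters of the window and was not tested for binding.

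Levels are given in CPM, reads per M (1e+06) reads assigned to genes, as the authors deposited them. Estimated depth was 21.5 to 37.6 M reads per library in doxorubicin-treated cells, 19.5 to 21.9 M in doxorubicin vehicle cells, 21.4 to 32.4 M in peroxide-treated cells and 17.3 to 20.99 M in peroxide vehicle cells. A floor of 3 reads lay at 0.0798 to 0.173 CPM, below the level of every member in every library. Differences are on the log2(CPM + 1) scale, which understates changes of low values, with the standard error (SE) from 1 limma model over the 12 libraries. A gene was called at a Benjamini-Hochberg adjusted p below 0.05 over all tested genes. The libraries of peroxide replicate 2, doxorubicin vehicle replicate 3 and doxorubicin replicate 1 stood apart from the others of their groups on the second principal component, which held 23.7% of the variance. With all libraries, 7 of the 9 members were called for doxorubicin, 6 for peroxide, 4 for the difference between the effects and 4 between the vehicles. Of all tested genes 49.9%, 50.7%, 33.6% and 28% were called in the same order (6627, 6733, 4461 and 3719 genes). Without those 3 libraries the member counts were 8, 6, 6 and 5, and those over all tested genes were 7265, 7177, 5245 and 4261.

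The line expressed fibroblast genes, as its label implies, but their levels differed between the groups. All 12 fibroblast markers passed the filter, with summed levels of 13212 to 17277 CPM in doxorubicin-treated cells, 10531 to 11110 CPM in doxorubicin vehicle cells, 12725 to 14124 CPM in peroxide-treated cells and 8914 to 10470 CPM in peroxide vehicle cells. With doxorubicin 9 rose, 2 fell and 1 did not pass the test, and with peroxide 9 rose, 1 fell and 2 did not pass. Among all tested genes 49.9% and 50.7% were called. Dcn averaged 731 against 166 CPM with doxorubicin and 538 against 17.6 CPM with peroxide. Lum averaged 6.41 against 0.914 CPM and 4.29 against 0.096 CPM, so it passed the filter through treated libraries and lay near the floor in the peroxide vehicle. Of 16 leukocyte markers, 11 were under 1 CPM in every library, among them Ptprc, the pan-leukocyte CD45, at no more than 0.0927 CPM and Spi1 at no more than 0.0266 CPM. Of the 4 that passed the filter, 3 rose and 1 fell with doxorubicin, and 2 rose, 1 fell and 1 did not pass the test with peroxide. The fallers were Cd14 with doxorubicin (-0.60 ± 0.17, limma adjusted p 0.0123) and Csf1r with peroxide (-0.57 ± 0.14, adjusted p 0.00453). The summed leukocyte markers were at 31.3 to 36 CPM in doxorubicin-treated cells against 15.3 to 23.5 CPM in their vehicle, and at 27.5 to 31 CPM in peroxide-treated cells against 20.7 to 21.8 CPM in theirs. The macrophage lysozyme gene Lyz2 was at 12.3 ± 1.25 CPM in doxorubicin-treated cells against 2.8 ± 2.64 CPM in doxorubicin vehicle cells (SD, n = 3). Endothelial markers summed to 35.9 to 44.9 CPM in doxorubicin-treated cells against 17.2 to 19.9 CPM in vehicle and to 25.6 to 32.3 CPM in peroxide-treated cells against 8.96 to 12.4 CPM in vehicle, with 6 of 8 under 1 CPM throughout. Of the others, Tek rose with doxorubicin (1.35, adjusted p 8.11e-05) and with peroxide (1.65, 1.55e-05), whereas Egfl7 fell with doxorubicin (-1.10 ± 0.31, 0.0118) and was not called with peroxide (0.15, 0.708). Epithelial markers summed to 68.8 to 80.9 CPM with doxorubicin against 122 to 184 CPM with vehicle and to 18.3 to 58.4 CPM with peroxide against 168 to 181 CPM with vehicle, and 9 of 10 were under 1 CPM throughout, the exception being the keratin gene Krt19. Adipocyte markers summed to 26.9 to 33.7 CPM with doxorubicin against 56.3 to 65.1 CPM with vehicle, and to 28.7 to 31.7 CPM with peroxide against 50.1 to 51.7 CPM with vehicle, with 3 of 7 under 1 CPM throughout. Among them Fabp4 fell with doxorubicin (-1.48, adjusted p 1.34e-06) and with peroxide (-0.86, 8.9e-05), Adipoq rose with both (0.92, 0.00354 and 1.06, 0.00136), and Cfd rose with doxorubicin (1.71, 7.26e-07). Adipoq averaged 3.2 against 1.2 CPM with doxorubicin and 1.59 against 0.226 CPM with peroxide. It passed the filter through treated libraries and lay near the floor in the peroxide vehicle. Cfd averaged 3.85 against 0.491 CPM with doxorubicin. The part of these genes in the results below was not tested. In bulk RNA, fewer cells of a type and less RNA per cell cannot be told apart.

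Under doxorubicin, 6 of the 9 members rose, 1 fell and 2 did not pass the test. Irf7 rose most, followed by Stat2 and Irf9, and Stat6 was the member that fell. Among all tested genes, 49.9% were called (22.1% higher and 27.8% lower), and the median log2 difference was 0.97 over the members against -0.03 over all tested genes. In 8 of the 9 members the libraries of the 2 groups did not overlap, which held for 59.7% of all tested genes. Under peroxide, 4 members rose, 2 fell and 3 did not pass the test, against 50.7% of all tested genes called (27.3% higher and 23.4% lower). Here 6 of 9 members did not overlap, against 59.9% of all tested genes, and the members' median difference was 0.03 against -0.01. With 9 members, neither count was tested against the background.

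**Figure D1:**
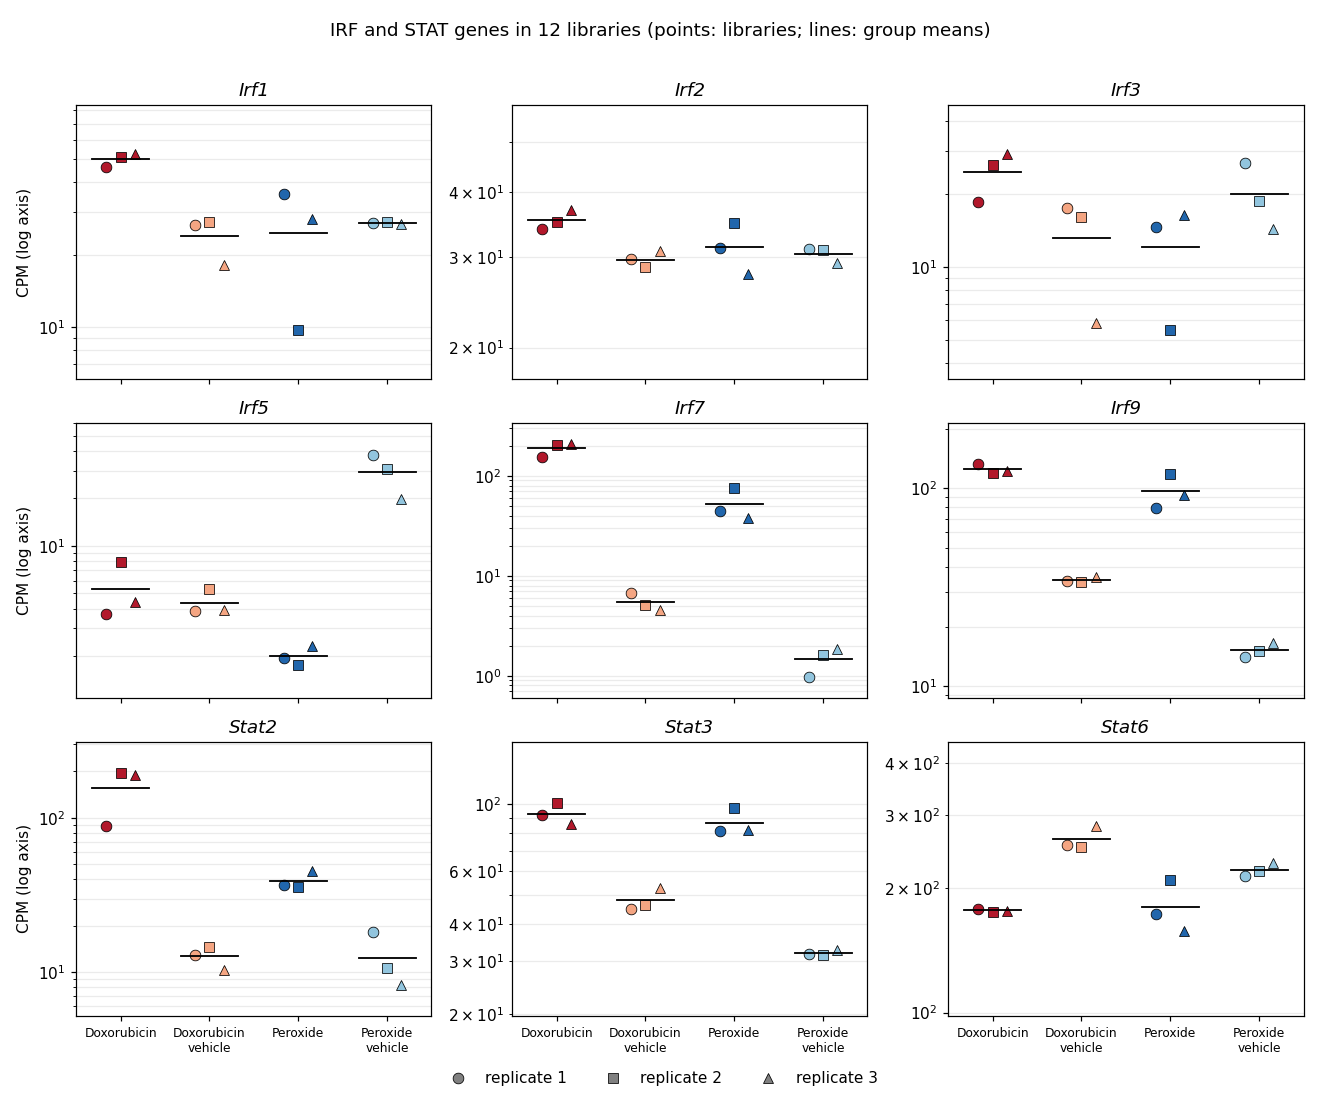
CPM of each member on a log axis (each panel with its own range) for the 3 libraries of doxorubicin-treated, doxorubicin vehicle, peroxide-treated and peroxide vehicle cells, with symbols for replicate numbers and lines at group means. Irf7, Irf9, Stat2 and Stat3 lie higher in all treated libraries than in all libraries of the matching vehicle, and Irf5 is high only in the 3 peroxide vehicle libraries (19.7 to 37.5 CPM against 1.74 to 7.86 CPM in the other 9).

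Irf7, the factor known for amplifying interferon production (chr7:141262706-141266481, minus strand, mm10), showed the largest rise among the members under both treatments. Irf7 was at 154, 204 and 210 CPM in doxorubicin-treated cells, against 6.76, 5.11 and 4.57 CPM in doxorubicin vehicle cells. In peroxide-treated cells it was at 44.8, 76.5 and 37.5 CPM, against 0.967, 1.62 and 1.85 CPM in peroxide vehicle cells. Every treated library lay far above every vehicle library, and the doxorubicin libraries lay above those of peroxide. The ratio of group means was 34.6 for doxorubicin and 35.8 for peroxide. On the log2 scale the difference was 4.88 ± 0.25 for doxorubicin (SE, limma adjusted p 5.23e-08) and 4.39 ± 0.25 for peroxide (adjusted p 1.3e-07). Across 25 alternative settings it ran from 4.67 to 5.09 for doxorubicin and from 3.93 to 5.05 for peroxide, and it was called in each. Only 1.19% of its exon bases are shared with another gene, Phrf1, on the opposite strand.

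Irf9, the DNA-binding subunit of the STAT2-containing complex (chr14:55603571-55610030, plus strand), rose under both treatments. Its levels were 133, 119 and 122 CPM in doxorubicin-treated cells, against 33.8, 33.4 and 35.4 CPM in doxorubicin vehicle cells. They were 79.3, 118 and 92.9 CPM in peroxide-treated cells, against 14, 15 and 16.6 CPM in peroxide vehicle cells. No treated library came near a vehicle library, and the day 7 vehicle libraries all lay above the day 6 ones. The difference was 1.83 ± 0.12 for doxorubicin (limma adjusted p 4.68e-07) and 2.57 ± 0.12 for peroxide (adjusted p 3.88e-08). The ratios of group means were 3.64 and 6.35.

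Stat2, the STAT protein dedicated to interferon signalling (chr10:128270559-128292849, plus strand), was at 88, 194 and 190 CPM in doxorubicin-treated cells, against 13, 14.6 and 10.4 CPM in doxorubicin vehicle cells. Peroxide-treated cells had 36.8, 35.4 and 45 CPM, against 18.2, 10.6 and 8.32 CPM in peroxide vehicle cells. Doxorubicin replicate 1 was the lowest of its group, at 0.74 below the group mean on the log2 scale, yet still above all vehicle and peroxide libraries. Stat2 rose by 3.46 ± 0.31 with doxorubicin (limma adjusted p 4.95e-06) and by 1.64 ± 0.31 with peroxide (adjusted p 0.00115). The ratios of group means were 12.4 for doxorubicin and 3.15 for peroxide.

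Irf1, an interferon-gamma-inducible activator of antigen presentation genes (chr11:53770014-53778374, plus strand), was at 46.1, 50.8 and 52.4 CPM in doxorubicin-treated cells, against 26.6, 27.3 and 18.1 CPM in doxorubicin vehicle cells. In peroxide-treated cells it was at 35.6, 9.72 and 28.1 CPM, against 27.1, 27.2 and 26.8 CPM in peroxide vehicle cells. The doxorubicin libraries all lay above their vehicle, whereas the peroxide libraries lay on both sides of theirs, with replicate 2 far below. Irf1 rose by 1.04 ± 0.35 under doxorubicin (limma adjusted p 0.0292). That call was lost without doxorubicin replicate 2 (1.02, adjusted p 0.0706), without doxorubicin replicate 3 (1, 0.0754), without doxorubicin vehicle replicate 3 (0.86, 0.102) and with no filter on low values (0.0637), and the adjusted p ran from 5.89e-05 to 0.102 over the alternatives. For peroxide the difference was -0.32 ± 0.35, with a 95% interval of -1.09 to 0.46 (adjusted p 0.478). It turned to 0.22 without peroxide replicate 2, again not called (adjusted p 0.296, range 0.0875 to 0.601 over the alternatives).

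Irf2, known as an antagonist of IRF1 at shared sites (chr8:46739732-46847458, plus strand), varied little. It was at 33.9, 35 and 36.9 CPM in doxorubicin-treated cells, against 29.7, 28.6 and 30.7 CPM in doxorubicin vehicle cells. Peroxide-treated cells had 31.2, 34.8 and 27.8 CPM, against 31.1, 30.9 and 29.2 CPM in peroxide vehicle cells. The doxorubicin libraries were all slightly higher than their vehicle, and the peroxide libraries overlapped theirs. Irf2 rose by 0.24 ± 0.09 with doxorubicin (limma adjusted p 0.0375), and this call was lost under 10 of 25 alternatives, with adjusted p from 0.000476 to 0.118. Single libraries whose removal ended it were doxorubicin replicates 2 (0.25, adjusted p 0.0713) and 3 (0.21, 0.118), doxorubicin vehicle replicates 1 (0.24, 0.08), 2 (0.22, 0.109) and 3 (0.27, 0.0572), peroxide replicate 1 (0.24, 0.0513) and peroxide vehicle replicate 2 (0.24, 0.0516). The peroxide difference was 0.03 ± 0.09, with an interval of -0.16 to 0.23 (adjusted p 0.767), and it was -0.04 without peroxide replicate 2.

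Irf3, the constitutively present factor activated by phosphorylation downstream of nucleic acid sensors (chr7:44997648-45002848, plus strand), was at 18.5, 26.2 and 29.1 CPM in doxorubicin-treated cells, against 17.4, 16 and 5.85 CPM in doxorubicin vehicle cells. It was at 14.6, 5.5 and 16.3 CPM in peroxide-treated cells, against 26.7, 18.7 and 14.3 CPM in peroxide vehicle cells. Peroxide replicate 2 and doxorubicin vehicle replicate 3 were far below the others of their groups, by 0.89 and 0.91 on the log2 scale, and these were also the lowest libraries of their groups for Irf1. The doxorubicin libraries did not overlap their vehicle, but the difference of 0.97 ± 0.43 did not pass the test (limma adjusted p 0.0848). It was called with array weights (0.91, adjusted p 0.00799), without peroxide replicate 2 (0.97, 0.0385) and without the 3 libraries that stand apart (0.69, 0.0202), within a range of 0.00799 to 0.321, and it was 0.51 without doxorubicin vehicle replicate 3 (0.321). The peroxide difference was -0.75 ± 0.43, with an interval of -1.70 to 0.20 (adjusted p 0.171, range 0.0986 to 0.554 over the alternatives). It was -0.31 without peroxide replicate 2 (adjusted p 0.554) and -0.53 without peroxide vehicle replicate 1 (0.41). Bcl2l12, which overlaps 2.56% of the exon bases of Irf3 on the opposite strand, was low in the same 2 libraries, at 1.26 CPM in peroxide replicate 2 and 2.1 CPM in doxorubicin vehicle replicate 3, against 8.91 to 16.6 CPM in the other 10.

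Irf5, a factor best known from myeloid and B cells (chr6:29526625-29541871, plus strand), set the peroxide vehicle apart from every other group. It was at 3.7, 7.86 and 4.37 CPM in doxorubicin-treated cells, against 3.83, 5.34 and 3.89 CPM in doxorubicin vehicle cells. In peroxide-treated cells it was at 1.94, 1.74 and 2.32 CPM, against 37.5, 30.7 and 19.7 CPM in peroxide vehicle cells. The 9 libraries outside the peroxide vehicle spanned 1.74 to 7.86 CPM, and the lowest peroxide vehicle library lay well above them. Irf5 fell by 3.29 ± 0.26 on the log2 scale with peroxide (limma adjusted p 1.58e-06), and the ratio of group means was 0.0683. With doxorubicin the difference was 0.19 ± 0.26, with an interval of -0.38 to 0.77 (adjusted p 0.564), and it was -0.08 without doxorubicin replicate 2 (adjusted p 0.813, range 0.276 to 0.866 over the alternatives). Tnpo3, an import receptor gene on the opposite strand, shares 411 bases, 14.1% of the exon bases of Irf5, and reads there cannot be told apart without stated strand counting. Tnpo3 was at 183 ± 9.02 CPM in doxorubicin-treated cells and 246 ± 4.77 CPM in doxorubicin vehicle cells, and at 197 ± 6.1 CPM in peroxide-treated cells and 271 ± 2.82 CPM in peroxide vehicle cells (SD, n = 3). It fell by 0.43 ± 0.06 with doxorubicin (limma adjusted p 7.48e-05) and by 0.46 ± 0.06 with peroxide (adjusted p 4.11e-05), and day 7 vehicle minus day 6 vehicle was -0.14 ± 0.06 (adjusted p 0.0807). Its part in the Irf5 values was not tested. Of the leukocyte markers, Ptprc and Spi1 were listed at 0 in all 3 peroxide vehicle libraries, where Irf5 was high. Csf1r, the receptor gene of the macrophage growth factor, was at 12.9 ± 0.929 CPM in doxorubicin-treated cells and 8.34 ± 0.738 CPM in doxorubicin vehicle cells, and at 9.05 ± 1.98 CPM in peroxide-treated cells and 13.8 ± 0.316 CPM in peroxide vehicle cells (SD, n = 3). Csf1r was thus lower with peroxide, as given above, and lower in day 7 than in day 6 vehicle (-0.66 ± 0.14, adjusted p 0.00429), and its part in the Irf5 differences was not tested.

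Stat3, the main effector of IL-6 family cytokines (chr11:100885098-100939540, minus strand), was at 92.4, 101 and 86.1 CPM in doxorubicin-treated cells, against 44.9, 46.1 and 52.5 CPM in doxorubicin vehicle cells. Peroxide-treated cells had 81.5, 96.9 and 82 CPM, against 31.8, 31.5 and 32.6 CPM in peroxide vehicle cells. The treated libraries of both experiments spanned a similar range, and the vehicles did not. Stat3 rose by 0.95 ± 0.09 with doxorubicin (limma adjusted p 8.41e-06) and by 1.41 ± 0.09 with peroxide (adjusted p 3.67e-07). Its ratios of group means were 1.95 with doxorubicin and 2.71 with peroxide.

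Stat6, the effector of IL-4 and IL-13 (chr10:127642986-127660957, plus strand), moved against the other STAT members. Its levels were 178, 175 and 176 CPM in doxorubicin-treated cells, against 253, 251 and 281 CPM in doxorubicin vehicle cells. They were 173, 209 and 157 CPM in peroxide-treated cells, against 213, 220 and 229 CPM in peroxide vehicle cells. All treated libraries lay below their vehicle, with peroxide replicate 2 just below. Stat6 fell by 0.56 ± 0.09 with doxorubicin (limma adjusted p 0.000471) and by 0.30 ± 0.09 with peroxide (adjusted p 0.0182). The peroxide call did not survive leaving out peroxide replicate 1 (-0.28, adjusted p 0.058) or peroxide replicate 3 (-0.21, 0.0647). It was also lost without peroxide vehicle replicate 3 (-0.28, 0.0603), in a separate fit of the experiment (0.058) and with upper-quartile scaling (-0.23, 0.131). Over the alternatives the adjusted p ran from 0.000201 to 0.131.

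**Figure D2:**
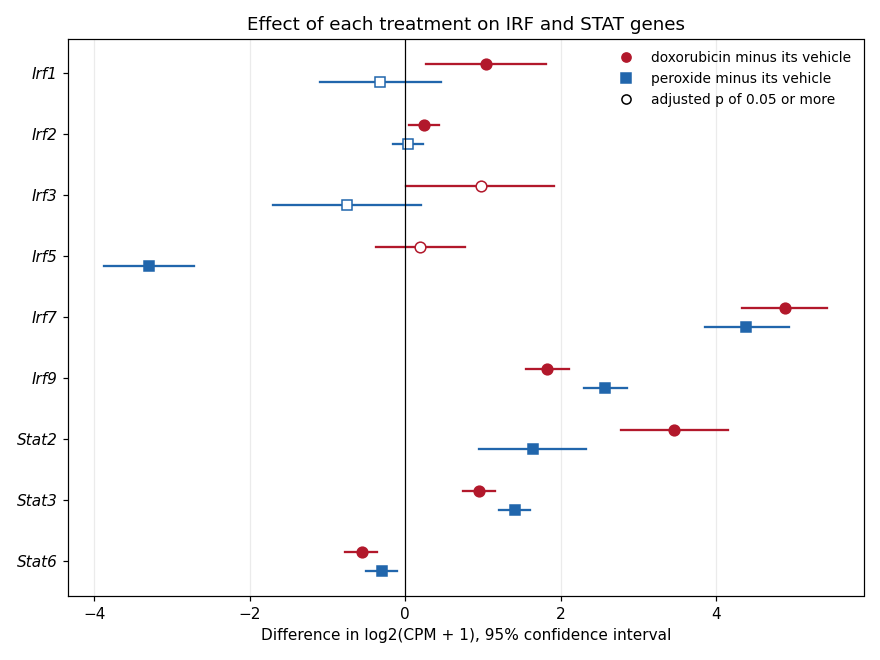
Difference in log2(CPM + 1) between treated cells and their vehicle for each member, with 95% confidence intervals; circles are doxorubicin, squares peroxide, and open symbols have an adjusted p of 0.05 or more. Irf7, Irf9, Stat2 and Stat3 lie right of 0 and Stat6 left of 0 under both treatments, and Irf5 lies at -3.29 for peroxide but at 0.19 for doxorubicin.

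How far the effects of the treatments differed was tested as the doxorubicin effect minus the peroxide effect. Of the 9 members, 2 had a higher doxorubicin effect, 2 a lower one and 5 did not pass the test, against 33.6% of all tested genes called (13.5% higher and 20.1% lower). Among all called genes 40.3% were higher, and 52% under median-of-ratios scaling. Of the members, 4 were higher and 1 lower under median-of-ratios scaling, and 4 higher and 2 lower under upper-quartile scaling. The members' median was 0.48, against -0.07 over all tested genes. Irf5 differed by 3.49 ± 0.37 (limma adjusted p 0.000134) and Stat2 by 1.82 ± 0.44 (adjusted p 0.0112). Irf9 differed by -0.74 ± 0.18 (adjusted p 0.00966), its rise being larger with peroxide. The Stat3 difference of -0.46 ± 0.13 (adjusted p 0.0205) was lost without doxorubicin replicate 3 (-0.41, 0.0535), without doxorubicin vehicle replicate 3 (-0.39, 0.0518), without the 3 libraries that stand apart (-0.31, 0.058) and with median-of-ratios scaling (-0.39, 0.0649), in a range of 0.00249 to 0.0649. Irf7, Irf1 and Irf3 did not pass this test, at 0.48 ± 0.35 (interval -0.29 to 1.26, adjusted p 0.302), 1.36 ± 0.50 (interval 0.27 to 2.45, 0.0552) and 1.72 ± 0.61 (interval 0.37 to 3.06, 0.0508). Irf2 and Stat6 were at 0.21 ± 0.12 (interval -0.06 to 0.48, 0.207) and -0.26 ± 0.13 (interval -0.55 to 0.03, 0.147).

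Several of these near-threshold calls changed with a setting or a library. Irf1 was called with median-of-ratios scaling (1.43, adjusted p 0.0411), upper-quartile scaling (1.28, 0.0487) and array weights (0.84, 0.0265). It was also called without peroxide replicate 1 (1.71, adjusted p 0.0198), 2 (0.82, 0.0166) or 3 (1.54, 0.0478), in a range of 0.00469 to 0.124 over its alternatives. Irf3 was called with the same 3 settings (adjusted p 0.0393, 0.0415 and 0.0178 at 1.79, 1.64 and 1.34), with a pseudocount of 2 (1.6, 0.0485) and with a filter of 5 CPM (1.72, 0.0487). It was likewise called without doxorubicin replicate 1 (1.90, adjusted p 0.0426), doxorubicin vehicle replicate 1 (1.97, 0.0433) or peroxide replicate 3 (1.98, 0.0395), in a range of 0.0178 to 0.115. The Irf3 estimate was smaller without peroxide replicate 2 (1.27, adjusted p 0.085), doxorubicin vehicle replicate 3 (1.26, 0.103) or both (0.82, 0.0937). Without the 3 libraries that stand apart it was 1 and called (adjusted p 0.0219). Irf7 was called with array weights (0.74, adjusted p 0.0211) and without peroxide replicate 2 (0.78, 0.0494), but was at 0.04 (0.943) with a pseudocount of 0.1. Irf2 was called with array weights (0.30, adjusted p 0.0173, range 0.0173 to 0.528). Stat6 was called without peroxide replicate 3 (-0.35, adjusted p 0.0446, range 0.0446 to 0.429). Without peroxide replicate 3 alone, 7 members were called rather than 4, and over all tested genes 4251 rather than 4461.

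The vehicles, against which both effects were measured, differed as well. Between day 7 and day 6 vehicle cells, 3 members were higher, 1 was lower and 5 did not pass the test, against 28.0% of all tested genes called (15.1% higher and 12.9% lower). Libraries did not overlap in 5 of 9 members, against 52.2% of all tested genes, and the median was 0.09 against -0.02. Irf7 was at 5.48 ± 1.14 CPM in day 7 vehicle cells and 1.48 ± 0.458 CPM in day 6 vehicle cells (SD, n = 3), a difference of 1.39 ± 0.25 (limma adjusted p 0.00192). Irf9 averaged 34.2 ± 1.04 CPM on day 7 and 15.2 ± 1.32 CPM on day 6, a difference of 1.12 ± 0.12 (adjusted p 9.72e-05). Stat3 averaged 47.9 ± 4.08 CPM on day 7 and 32 ± 0.564 CPM on day 6, a difference of 0.56 ± 0.09 (adjusted p 0.00105). Irf7, Irf9 and Stat3 thus had a higher vehicle level in the doxorubicin experiment. Irf5 was the member that was lower, at 4.36 ± 0.856 CPM on day 7 against 29.3 ± 8.98 CPM on day 6, a difference of -2.47 ± 0.26 (adjusted p 7.44e-05). Irf1, Irf2, Irf3 and Stat2 overlapped between the vehicles. Stat6 did not overlap, and its difference of 0.24 (interval 0.04 to 0.45) had an adjusted p of 0.0743. It was called without peroxide replicate 2 (0.24, adjusted p 0.0119) or 3 (0.24, 0.0407), in a range of 0.0108 to 0.236. Day of lysis, number of passages and experiment cannot be told apart between the vehicles.

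**Figure D3:**
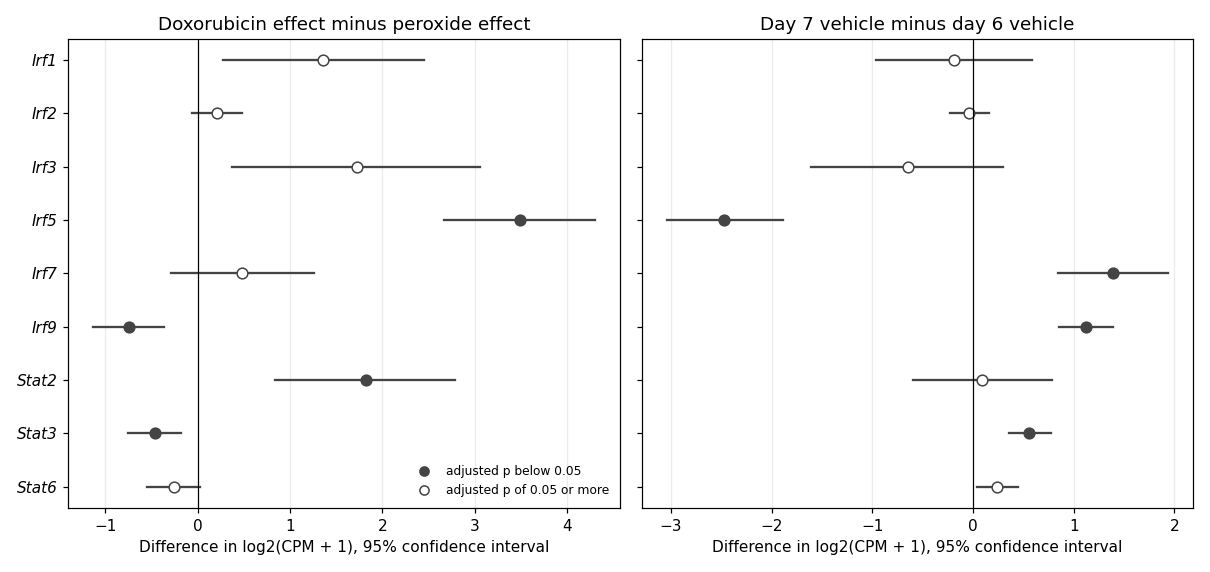
Left, the doxorubicin effect minus the peroxide effect; right, day 7 vehicle minus day 6 vehicle, both in log2(CPM + 1) with 95% confidence intervals and filled circles for an adjusted p below 0.05. Irf5 stands out in both panels, at 3.49 on the left and -2.47 on the right, and Irf7, Irf9 and Stat3 lie right of 0 between the vehicles.

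Compared per kilobase of merged exon, so that genes of different length can be ordered, Stat6 led every group except doxorubicin-treated cells. There Irf7 stood first at 50.1 ± 8.25 CPM per kilobase, ahead of Stat6 at 40.1 ± 0.373, with no overlap between their libraries. Stat2 at 26.5 ± 10.1 and Irf9 at 23.1 ± 1.39 followed and overlapped each other, and Irf5 was last at 1.83 ± 0.769. In doxorubicin vehicle cells Stat6 was at 59.5 ± 3.85 CPM per kilobase, Irf9 second at 6.35 ± 0.193, and Irf7 last at 1.45 ± 0.303. Irf9, Irf1 and Stat3 overlapped their neighbours in that order, as did all members from Irf2 down to Irf7. In peroxide-treated cells Stat6 was at 40.9 ± 6.07 CPM per kilobase, followed by Irf9 at 17.9 ± 3.62 and Irf7 at 14 ± 5.48, which overlapped, and Irf5 was last at 0.689 ± 0.102. The middle of that order, from Stat2 at 6.59 ± 0.877 through Irf1 and Irf2 to Irf3 at 3.52 ± 1.69, was a chain of overlapping neighbours. In peroxide vehicle cells Irf5 was second at 10.1 ± 3.09 CPM per kilobase, behind Stat6 at 50.2 ± 1.9 and overlapping Irf1 at 6.81 ± 0.0485, and Irf7 was last at 0.392 ± 0.121. The annotated exons of Irf7 merge into 1 block that covers the whole gene, so its level per length is low relative to that of a spliced transcript. Merged exons also cover most of Irf9 (5386 bases) and Irf3 (3442 bases), so their levels per length may be low as well. The order of the members carries this limit.

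**Figure D4:**
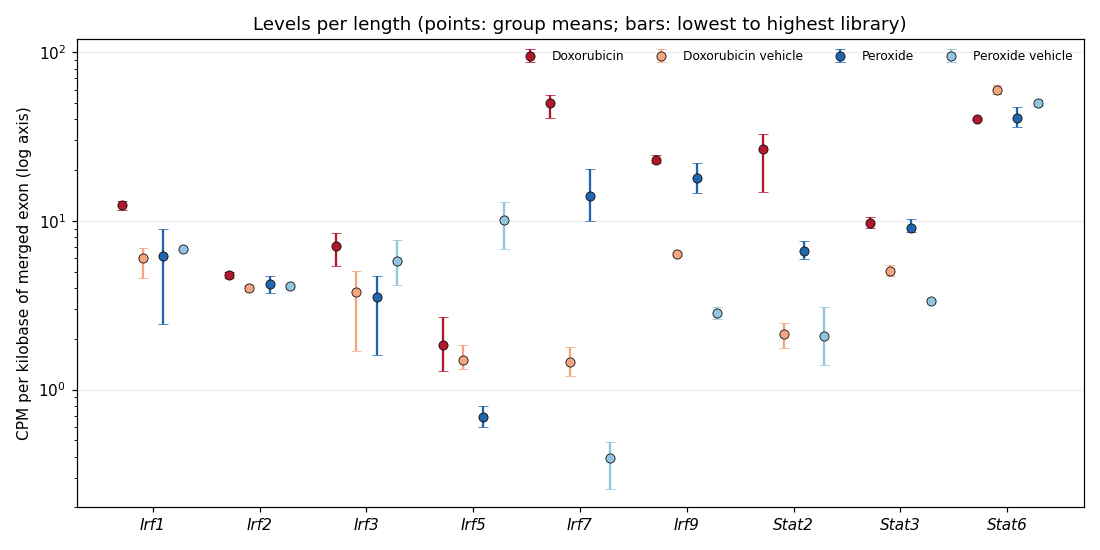
CPM per kilobase of merged exon on a log axis for each member in doxorubicin-treated, doxorubicin vehicle, peroxide-treated and peroxide vehicle cells; points are group means and bars run from the lowest to the highest library. Irf7 spans the widest range of levels, between 0.392 and 50.1, whereas Irf2 stays between 4.01 and 4.77.

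Within groups the members did not vary alike. The coefficient of variation of 3 libraries was 54.4% for Irf1 in peroxide-treated cells but 0.713% in peroxide vehicle cells. It was 48.2% for Irf3 in doxorubicin vehicle cells and 47.9% in peroxide-treated cells, and 38.2% for Stat2 in doxorubicin-treated cells. Stat6 had 0.93% in doxorubicin-treated cells and Irf2 4.25%. In peroxide replicate 2, Irf1 and Irf3 were 1.07 and 0.89 below the group mean on the log2 scale, while Irf7 was 0.59 above it. That library held the lowest Irf1, Irf3, Irf5 and Stat2 of its group and the highest Irf2, Irf7, Irf9, Stat3 and Stat6.

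**Figure D5:**
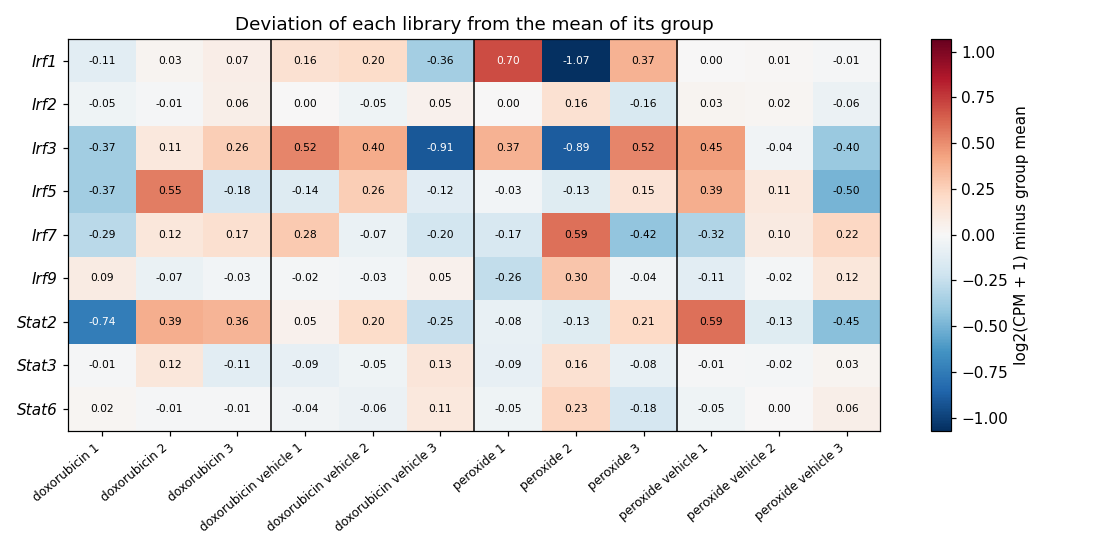
Deviation of each library from the mean of its group in log2(CPM + 1), for each member (rows) and library (columns), with red above and blue below the mean. The deepest blue cells are Irf1 (-1.07) and Irf3 (-0.89) in peroxide replicate 2 and Irf3 (-0.91) in doxorubicin vehicle replicate 3.

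The other genes of these pathways were described from lists of textbook members, ordered from ligand to target. Of 20 listed ligands only 5 passed the filter, and all 5 rose with doxorubicin (median 1.18), while 4 rose and 1 fell with peroxide (median 0.57). Among all tested genes 49.9% were called with doxorubicin and 50.7% with peroxide. Il11 averaged 1.28 CPM with doxorubicin and 0.83 CPM with peroxide, against 0.0987 and 0.226 CPM in their vehicles. Lif averaged 2 and 0.869 CPM, against 0.18 and 0.172 CPM. Both passed the filter through treated libraries, so their rises were partly set by it and are no support for a list-wide rise. The peroxide count of risers was 2 without peroxide replicate 3 or without peroxide vehicle replicate 2. Il6, the cytokine that gives its family the name, was at 5.02 ± 0.816 CPM in doxorubicin-treated cells and 0.57 ± 0.276 CPM in doxorubicin vehicle cells, a rise of 1.94 ± 0.17 (SD, n = 3; limma adjusted p 3.71e-06). Lif, of the same family, rose by 1.34 ± 0.20 with doxorubicin (adjusted p 0.000205) and by 0.64 ± 0.20 with peroxide (adjusted p 0.019). With peroxide, Lif was no longer called without peroxide replicate 2 (0.42, adjusted p 0.0691), without peroxide vehicle replicate 2 (0.53, 0.0762) and without the 3 libraries that stand apart (0.42, 0.0857), in a range of 0.00344 to 0.0857. Clcf1, another ligand of that family, fell with peroxide by 1.02 ± 0.30 (adjusted p 0.0143), a call lost without peroxide replicate 2 (-0.74, 0.0529) or peroxide vehicle replicate 1 (-0.88, 0.0563), in a range of 0.00963 to 0.0563. None of the 8 listed interferon genes passed the filter. The highest value among them was 0.326 CPM, for Ifnb1, which was above 0 in 3 libraries.

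Of 15 receptors tested, 8 rose, 1 fell and 6 did not pass with doxorubicin (median 0.50), and 6 rose, 1 fell and 8 did not pass with peroxide (median 0.22). These 9 and 7 of 15 stand against 49.9% of all tested genes called with doxorubicin and 50.7% with peroxide. Il4ra, the receptor chain upstream of STAT6, was at 316 ± 28.8 CPM in doxorubicin-treated cells and 67.7 ± 28.5 CPM in doxorubicin vehicle cells (SD, n = 3; limma difference 2.31 ± 0.48, adjusted p 0.00209). With peroxide it was at 122 ± 70.9 CPM against 153 ± 7.56 CPM in vehicle and did not pass the test (adjusted p 0.335). Osmr, the oncostatin M receptor upstream of STAT3, rose by 1.96 ± 0.09 with doxorubicin (adjusted p 2.58e-08) and by 1.58 ± 0.09 with peroxide (adjusted p 1.45e-07). Egfr, a growth factor receptor, rose by 1.53 ± 0.17 with peroxide (adjusted p 1.84e-05). Of the 3 Janus kinases tested, Jak2 fell by 0.56 ± 0.09 with doxorubicin (adjusted p 0.00058) and Jak1 rose by 0.47 ± 0.07 with peroxide (adjusted p 0.000133), and the others did not pass.

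Among 22 sensors, adaptors and kinases that act upstream of IRF proteins, 6 rose, 3 fell and 13 did not pass with doxorubicin (median -0.02), and 9 rose, 3 fell and 10 did not pass with peroxide (median 0.14). The 9 and 12 of 22 called are near the 49.9% and 50.7% of all tested genes. The genes of this list that moved most were Zbp1, Dhx58 and Ddx58. Zbp1, a sensor of Z-form nucleic acid, rose by 5.06 ± 0.21 with doxorubicin (limma adjusted p 1.03e-08) and by 3.17 ± 0.21 with peroxide (adjusted p 3.95e-07). It averaged 42.3 against 0.292 CPM with doxorubicin and 8.74 against 0.0351 CPM with peroxide. Zbp1 passed the filter through treated libraries, so its rises were partly set by it. Its peroxide vehicle mean lay below the floor, so that fitted difference depends on the pseudocount. Of the RNA sensor genes, Dhx58 rose by 3.07 ± 0.18 with doxorubicin (adjusted p 1.91e-07) and Ddx58 by 2.80 ± 0.16 with peroxide (adjusted p 1.15e-07). Of 22 negative regulators, 10 rose, 3 fell and 9 did not pass with doxorubicin (median 0.25), and 7 rose, 2 fell and 13 did not pass with peroxide (median 0.07), so that 13 and 9 of 22 were called, against the same 49.9% and 50.7%. With peroxide, 6 rose and 6 fell without the 3 libraries that stand apart, and 4 fell without doxorubicin replicate 1 or without peroxide replicate 2 alone. Usp18, which restrains the type I interferon receptor, was at 495 ± 100 CPM in doxorubicin-treated cells and 5.04 ± 1.07 CPM in doxorubicin vehicle cells, and at 158 ± 66.3 CPM in peroxide-treated cells and 2.26 ± 0.163 CPM in peroxide vehicle cells (SD, n = 3). The phosphatase gene Ptpn1 rose by 0.99 ± 0.19 with doxorubicin (adjusted p 0.00122) and fell by 0.51 ± 0.19 with peroxide (adjusted p 0.0406), and these effects differed by 1.5 ± 0.27 (adjusted p 0.00234). The peroxide call of Ptpn1 ended without peroxide replicate 1 (-0.47, adjusted p 0.105) or 3 (-0.5, 0.085), without peroxide vehicle replicate 1 (-0.41, 0.139), 2 (-0.55, 0.068) or 3 (-0.57, 0.0534) and without doxorubicin vehicle replicate 2 (-0.51, 0.0514), in a range of 0.00334 to 0.139. The SOCS family gene Cish rose by 1 ± 0.15 with peroxide (adjusted p 0.000181).

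Targets of the STAT2-IRF9 complex and of IRF1 had larger medians than the lists upstream of them. The lists were chosen with earlier results of these data known. Some targets also passed the filter only through treated libraries, so this order is a description. All 22 listed targets of the STAT2-IRF9 complex rose with doxorubicin (median 3.62) and all 22 rose with peroxide (median 1.99), also without the 3 libraries that stand apart (medians 3.51 and 1.84) and at least 21 of them without any 1 library, against medians of -0.03 and -0.01 over all tested genes, of which 49.9% and 50.7% were called. Isg15, a ubiquitin-like antiviral protein, was at 317, 295 and 300 CPM in doxorubicin-treated cells against 2.71, 2.28 and 2.82 CPM in doxorubicin vehicle cells, and at 89.1, 175 and 80.3 CPM in peroxide-treated cells against 1.08, 1.1 and 1.56 CPM in peroxide vehicle cells. Its highest peroxide library was replicate 2, as for Irf7 and Irf9. Oas2 and Oas3 were listed at 0 in all libraries of both vehicles, and Mx1, Mx2 and Ifi44 in all those of the peroxide vehicle, so their fitted differences depend on the pseudocount. With these genes set instead to the log2 ratio of their treated mean to the highest floor of 3 reads in a vehicle library, a lower bound, the medians were 3.92 with doxorubicin and 3.13 with peroxide. Only genes at 0 were so set, 2 with doxorubicin and 5 with peroxide, so these medians mix both scales and cannot be compared between treatments. Others that averaged below the floor kept their fitted differences. Among them were Cmpk2, Mx1, Ifi44 and Mx2 in the doxorubicin vehicle (0.0329, 0.0494, 0.0785 and 0.0798 CPM) and Cmpk2 in the peroxide vehicle (0.0578 CPM). Oas2, Oas3, Mx1, Mx2, Ifi44 and Cmpk2 thus passed the filter through treated libraries, and their rises were partly set by it. The counts of risers are therefore no support for a list-wide rise. Of 14 targets of IRF1 tested, 14 rose with doxorubicin (median 1.61) and 14 with peroxide (median 1.32), although Irf1 itself was not called with peroxide. Gbp3, a guanylate-binding protein gene, rose by 5.39 ± 0.19 with doxorubicin (limma adjusted p 3.06e-09) and by 4.72 ± 0.19 with peroxide (adjusted p 1.12e-08). Psmb8, an immunoproteasome subunit gene, rose by 4.48 ± 0.37 with doxorubicin (adjusted p 2.55e-06), and Gbp2 by 3.26 ± 0.26 with peroxide (adjusted p 1.58e-06). Psmb8 averaged 0.474 CPM in doxorubicin vehicle cells and 0.373 CPM in peroxide vehicle cells, so it too passed the filter through treated libraries. Many genes of this list are also known interferon targets, so the lists are not independent of each other.

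Targets of STAT3 and STAT6 moved in both directions. Of 18 STAT3 targets tested, 9 rose, 1 fell and 8 did not pass with doxorubicin (median 0.60), and 9 rose, 3 fell and 6 did not pass with peroxide (median 0.35). That is 10 and 12 of 18 called, against 49.9% and 50.7% of all tested genes. Serpina3n, an acute-phase protease inhibitor gene, rose by 2.44 ± 0.21 with doxorubicin (limma adjusted p 2.8e-06) and by 2.48 ± 0.21 with peroxide (adjusted p 2.23e-06). Myc was at 12 ± 3.67 CPM in peroxide-treated cells and 48.1 ± 31.6 CPM in peroxide vehicle cells, a fall of 1.76 ± 0.59 (adjusted p 0.0263). For Myc the call ended when peroxide replicate 1 (-1.82, adjusted p 0.0521) or 2 (-1.52, 0.0796) was left out, and likewise without peroxide vehicle replicate 1 (-1.27, 0.11) or 2 (-1.83, 0.054), in a range of 0.00587 to 0.11. Of only 7 STAT6 targets tested, 5 rose and 1 fell with doxorubicin (median 0.89), and 4 rose and 2 fell with peroxide (median 0.77), 6 of 7 in each case against the same shares, while Stat6 itself fell. Ccl11, the eosinophil chemokine eotaxin, was at 24.1, 21.5 and 25.9 CPM in doxorubicin-treated cells against 0.247, 0.365 and 0.359 CPM in doxorubicin vehicle cells. In peroxide-treated cells it was at 8.7, 11.5 and 7.71 CPM, against 0.171, 0.476 and 0.405 CPM in peroxide vehicle cells. Ccl11 passed the filter through treated libraries, so its rises were partly set by it. Tgm2, a transglutaminase gene, rose by 1.57 ± 0.18 with peroxide (adjusted p 3.5e-05). Cish, Socs3 and Il4ra stand in more than 1 of these lists.

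The genes whose log2(CPM + 1) was most like that of each member were sought over the 12 libraries among protein-coding genes with a mean of at least 5 CPM. The libraries share their groups, treatments and depth, so the Pearson r is a description. Irf7 was most like Sp100 (r = 0.995) and Gbp7 (0.993), and Irf9 most like Rnase4 (0.997) and Ifi27 (0.994). Stat2 was most like Psmb8 (0.986) and Ifih1 (0.985), and Stat3 most like Mmp2 (0.995) and Rnase4 (0.993). The gene Rnase4 thus stood near both Irf9 and Stat3, at 453 CPM in doxorubicin-treated cells, 201 CPM in doxorubicin vehicle cells, 409 CPM in peroxide-treated cells and 125 CPM in peroxide vehicle cells. Irf1 was most like Pcdhgc3 (0.987) and Nr1d1 (0.983), and Irf3 most like Tsc22d1 (0.991) and Erp29 (0.989). Irf5 was most like Lyar (0.968) and Lrrfip1 (0.959), and Stat6 most like Got2 (0.988) and Ldha (0.977). The lowest likeness was that of Irf2, to Sik3 (0.887) and Zyx (0.878).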

How the data were processed

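RNA of 12 libraries was sequenced on a NovaSeq instrument, per the labels' protocols. The submitters' processing notes name bcl2fastq, DRAGEN and the mm10 build, while how reads were counted is not stated in the sources used here. The authors deposited CPM per gene. Of 55774 lines, 287 repeated a gene identifier with identical values and were dropped. Whole reads could not be recovered, since only 74.6 to 79.8% of low values were whole at a tolerance of 0.001 read, so no count model was used. Depth was estimated from the step between values, and floors reflect counting error alone.

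A gene was tested if 3 or more libraries reached 1 CPM, with limma 3.58.1 (R 4.3.3, mean-variance trend, 8 residual degrees of freedom) on log2(CPM + 1), two-sided, after a check on simulated data. The simulation held no outlying libraries and changed far fewer genes than were called here. It therefore does not measure the error rates of the test in these data. The model held 4 groups and gave 4 comparisons. The members and gene lists were chosen with earlier results of these data known. For each list, genes were named from the 2 called genes with the largest change and no overlap, of which Ifit1, Ifit3 and Cd68 were left out. For each member the 2 genes with the highest Pearson r were named. Isg15, Ccl11 and the peroxide values of Il4ra are given library by library or in full beyond these rules, and were chosen after their values were seen. Cd14, Csf1r, Ptprc, Spi1, Il11 and further values of Egfl7, Adipoq and Ptpn1 are also given beyond these rules. Positions and exon lengths came from GENCODE M21, and start windows from RefSeq. Alternatives were 2 pseudocounts, other filters and scalings, no trend, array weights, separate fits, a replicate block and leaving out libraries, and a GC correction, list counts without single libraries and list medians at bounds were added after seeing the data. Tables and figures used Python 3.11.15, numpy 2.4.6, pandas 2.3.3, scipy 1.17.1 and matplotlib 3.10.9.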

Additional observations from a re-analysis of the deposited data

Results flagged for a closer look

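For 4 members the doxorubicin effect and the peroxide effect differed in the test of the difference itself (limma, adjusted over all tested genes). The doxorubicin effect minus the peroxide effect was 3.49 for Irf5, 1.82 for Stat2, -0.74 for Irf9 and -0.46 for Stat3, on the log2(CPM + 1) scale. For Irf5 the day 7 vehicle was itself below the day 6 vehicle, at a difference of -2.47, and doxorubicin-treated cells were at 5.31 ± 2.23 CPM against 2 ± 0.295 CPM in peroxide-treated cells (SD, n = 3). For Irf9 and Stat3 the day 7 vehicle was higher than the day 6 vehicle by 1.12 and 0.56. For Stat2 the vehicles overlapped, at 12.7 ± 2.13 CPM on day 7 and 12.4 ± 5.16 CPM on day 6, and the treated groups did not. The part of the vehicle differences in these results was not tested. Groups of 3 libraries were not tested for single outlying libraries.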

How the results depend on the processing

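Of 882 recomputed values for single members, 814 kept their direction and their side of the threshold, 26 fell out of the call, 30 came into it and 12 changed sign. All 12 sign changes were in differences that were not called. With doxorubicin, Irf5 was -0.08 without doxorubicin replicate 2 (-0.08 to 0.38 over omissions of 1 library). With peroxide, Irf1 was 0.15 with array weights and 0.22 without peroxide replicate 2, without that library and doxorubicin vehicle replicate 3, or without these and doxorubicin replicate 1, and Irf2 was -0.04 under the same 3 omissions. Omissions of 1 library gave -0.67 to 0.22 for Irf1 and -0.04 to 0.11 for Irf2. Between day 7 and day 6 vehicles, Irf2 was 0.02 with upper-quartile scaling, and Stat2 was -0.01 without doxorubicin vehicle replicate 2 and -0.14 without peroxide vehicle replicate 3 (-0.14 to 0.38 over omissions of 1 library).

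For the difference between the effects, 8 members were called with array weights and 7 without peroxide replicate 3, against 4 in the fit reported. Over all genes, 6525 were called with array weights, more than the 4461 of the fit reported. Without peroxide replicate 3 the count over all genes was lower, at 4251. Leaving out 1 library at a time gave 5 to 8 members for doxorubicin, 5 to 6 for peroxide, 3 to 7 for the difference and 4 to 5 between the vehicles. The corresponding counts over all genes were 5554 to 7214, 5701 to 6967, 3148 to 5028 and 2568 to 4485. Between the vehicles 5666 genes were called with array weights, against 3719 in the fit reported. The cause of these shifts was not tested.

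Deviations of same-numbered treated and vehicle libraries correlated at -0.311, 0.194 and -0.277 in the doxorubicin experiment and at 0.143, 0.03 and -0.237 in the peroxide one. The highest r with another number was 0.399, 0.245 and 0.233 for doxorubicin and -0.021, 0.246 and 0.231 for peroxide. Only peroxide replicate 1 was thus most like its own number. With 3 libraries centred on each group mean, these values cannot settle whether the numbers paired the libraries. With a replicate block, 6 members were called for doxorubicin, 6 for peroxide, 3 for the difference and 3 between the vehicles. Over all genes the counts were 5957, 6091, 3272 and 1364. Under the block Irf2 with doxorubicin (adjusted p 0.055), the Stat3 difference (0.0627) and Stat3 between the vehicles (0.059) were not called, and Stat2 between the vehicles was -0.52. Depth limits values near the floor of 3 reads, 0.0798 to 0.173 CPM, and every member lay above it in every library.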
